A study of Mus musculus with 4 samples.

Results

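The cells described here were 1298 donor-derived mouse bone marrow cells with transcripts of the surrogate light chain, out of 41122 cells kept. A cell was kept when it had at least 500 detected genes and at most 10% of its unique molecular identifiers (UMIs, the counts of single transcript molecules) in mitochondrial genes. A kept cell belonged to the set when it had at least 3 UMIs of Igll1, at least 3 UMIs of Vpreb1 and at least 1 UMI of Cd79a. The cells were thus chosen by the measured levels of these 3 genes, which are given only as a description.

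The study used a competitive transplantation model with donor cells that were heterozygous for a mutation of Srcap or wild type, on the C57BL/6 strain. Srcap encodes a chromatin remodelling ATPase that loads H2A.Z, a variant of histone H2A, and the labels do not say what change the mutant allele carries. Haematopoietic stem and progenitor cells of donor origin, marked by CD45.2, were sorted from bone marrow 20 weeks after transplantation, with 20000 cells per sample, from 2 wild-type and 2 mutant samples. The labels do not give the age or conditioning of the hosts, the competitor cells or the sort markers beyond CD45.2. All 4 samples were in a single matrix whose cell barcodes ended in a library number from 1 to 4. Neither the labels nor the file headers tie a library number to a sample, so mutant and wild type were not compared, and every value below is given by library.

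In early B cell development, progenitors rearrange the immunoglobulin heavy chain gene with the Rag1 and Rag2 recombinase, and Dntt (terminal transferase) adds bases at the joints. A productive heavy chain pairs with the surrogate light chain, which is built from the products of Igll1 (lambda 5) and Vpreb1 or Vpreb2, and with Cd79a and Cd79b it forms the pre-B cell receptor. Signals from this receptor and from the interleukin 7 receptor drive divisions of large pre-B cells, after which cells leave the cycle and rearrange a light chain gene. The factors Tcf3, Ebf1 and Pax5 establish and keep the B lineage, and E-boxes and Ebf1 motifs lie in the regulatory regions of surrogate light chain genes.

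The promoters of the 3 genes that chose the cells are shown because every other result is read against that choice. They were taken from RefSeq with the build GRCm38.p6, 5′ to 3′ on the strand of the gene, and end at the base before its annotated start, except that the Cd79a window was ended at the earlier start of the GENCODE M21 gene, upstream of the RefSeq start. Capitals mark matches, on either strand, to 3 motifs: the E-box CAGGTG, the Ebf1-type motif CCCNNGGG and its shorter variant CAAGGG, none of which overlapped another in these windows. Igll1 lies at chr16:16860671-16863985 on the minus strand, and its promoter window is chr16:16863986-16864235. The Vpreb1 window is chr16:16869256-16869505 on the minus strand, and an exon of a non-coding alternative transcript of Vpreb1 overlaps it. The shorter Cd79a window is chr7:24897247-24897380 on the plus strand.
Igll1: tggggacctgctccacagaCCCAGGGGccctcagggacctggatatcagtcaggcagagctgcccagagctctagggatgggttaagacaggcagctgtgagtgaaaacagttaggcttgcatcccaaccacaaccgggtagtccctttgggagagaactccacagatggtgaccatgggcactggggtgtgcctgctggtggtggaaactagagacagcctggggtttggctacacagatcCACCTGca
Vpreb1: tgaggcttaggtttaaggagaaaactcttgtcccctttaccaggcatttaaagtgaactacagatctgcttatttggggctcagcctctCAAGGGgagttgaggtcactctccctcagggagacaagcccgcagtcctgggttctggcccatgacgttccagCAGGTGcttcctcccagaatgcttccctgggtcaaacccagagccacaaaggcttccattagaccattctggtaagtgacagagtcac
Cd79a: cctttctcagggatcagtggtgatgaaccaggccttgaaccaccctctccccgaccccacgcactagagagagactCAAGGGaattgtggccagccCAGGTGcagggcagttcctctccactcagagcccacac

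The E-box letters were present in the promoters of Igll1, Vpreb1 and Cd79a. CAAGGG was present in those of Vpreb1 and Cd79a, and CCCNNGGG in that of Igll1. Among all 32817 RefSeq mouse promoter windows of 250 bases, 17.2% held CAGGTG, 11.8% held CCCNNGGG and 15% held CAAGGG on either strand. The promoters of Vpreb2, Rag1 and Blnk also held CAGGTG, that of Dntt held CAAGGG, and those of Vpreb3, Ebf1, Pax5 and Il7r held none of the 3 in their windows. A match describes letters and is not a measured binding site.

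Vpreb1 and Vpreb2 are near copies, which matters for how the level of Vpreb2 is read. A stretch shared by their RefSeq promoter windows is shown with the positions that differ in capitals. For Vpreb1 it is chr16:16869256-16869361 on the minus strand, at the end of the window next to the start. For Vpreb2 it is chr16:17980315-17980420 on the plus strand, at the far end of a window that runs to 17980564.
Vpreb1: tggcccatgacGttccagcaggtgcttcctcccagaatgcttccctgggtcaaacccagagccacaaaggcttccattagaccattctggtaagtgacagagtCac
Vpreb2: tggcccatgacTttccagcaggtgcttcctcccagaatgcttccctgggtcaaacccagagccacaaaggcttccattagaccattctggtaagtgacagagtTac

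These 106 bases differed at 2 positions, an identity of 98.1%. Within the transcripts, 15.6% of the 90-base words of Vpreb1 also occurred in Vpreb2, and 0% of the last 300 words, where a 3′ library reads, were shared. Reads from the shared stretch could have been assigned to either gene or to neither, so the level of Vpreb2 was treated as uncertain.

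The libraries held between 112027160 and 144385614 UMIs, with a median of 9824 to 10226.5 UMIs per kept cell. Libraries 1, 2, 3 and 4 contributed 392, 232, 346 and 328 of the cells described here. These were 3.16% (95% exact Clopper-Pearson interval 2.86 to 3.48), 2.31% (2.03 to 2.63), 3.59% (3.22 to 3.98) and 3.63% (3.26 to 4.04) of the kept cells of each library. The share was lowest in library 2, whose interval lay below those of the other libraries. After every cell was thinned to 5000 UMIs before the rule was applied, the shares were 2.45%, 1.62%, 2.83% and 2.89%, again lowest in library 2. All intervals given here cover counting error only. The cells had a median of 14603.5 UMIs and their summed depth was between 3831842 and 6155132 UMIs per library. Of the 1298 cells, 11 had a barcode sequence that also occurred under another library number, and 1 such sequence was in the set under 2 numbers.

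The label under which the cells were selected names pro-B and pre-B cells, and it was checked against markers. Vpreb3, a gene that the rule did not use, had a UMI in 99.5% of the cells, and Ebf1 in 99.8%. In 3844 cells with at least 3 UMIs of the platelet gene Pf4, which should lack both and had a median of 13747.5 UMIs against 14603.5, the shares were 1.67% and 1.12%. Pax5 had a UMI in 88.0% of the cells against 0.234% of the Pf4 cells. Dntt, a gene of the pro-B stage, had a UMI in 99.6% of the cells, and only 5 cells had none. It also had a UMI in 97.8% of the 402 cells with Il7r and Ly6d but no Cd79a that are described below. Markers of later stages were scarce: Il2ra, the CD25 antigen of pre-B cells, had a UMI in 3 of the 1298 cells (0.231%) against 0.0260% of the Pf4 cells, Cd2 in 0.154% against 0.0520% and Enpep, the BP-1 antigen, in 1.16% against 0.338%. The kappa light chain transcript Igkc was found in 50.6% of the cells and in 51.7% of the Pf4 cells, and that of Iglc2 in 4.47% and 5.13%, so both were at background. No stage was assigned, and the cells are called Igll1+ Vpreb1+ cells below, after the rule.

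Cells on either side of the rule's threshold held transcripts of other B lineage genes. In the 30 cells whose lower count of Igll1 and Vpreb1 was 3, the summed level of Vpreb3 was 1908 counts per 1000000 UMIs (CPM), that of Ebf1 1940 and that of Rag1 275. In the 32 cells where it was 2, Vpreb3 stood at 1462 CPM, Ebf1 at 1564 and Rag1 at 349.

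Vpreb3 and Cd79b, which the rule did not use, varied by less than 2-fold across the 4 libraries. Vpreb3 was at 1800, 1792, 1943 and 1884 CPM in libraries 1 to 4. Cd79b, the partner of Cd79a in the receptor, was at 434, 416, 427 and 384 CPM. Igll1, a gene of the rule, was at 968, 920, 990 and 966 CPM, given as a description only. Vpreb2 ranged from 158 CPM in library 2 to 208 CPM in library 4. Ighm, the mu heavy chain, was at 816, 892, 745 and 1460 CPM. In library 4, the highest, 1 cell held 3592 of the 7772 Ighm UMIs, and the median was 10 to 12 Ighm UMIs per cell in every library. Ighm had a UMI in 99.4% of the cells, but also in 98.8% of the 402 cells with Il7r and Ly6d but no Cd79a. Whether these transcripts came from a rearranged gene was not tested.

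Transcription factor genes were measured in every library. Ebf1 was at 1549, 1502, 1596 and 1609 CPM, and Pax5 was at 174, 233, 180 and 197 CPM, with library 2 the highest for Pax5. Lef1, a Wnt pathway factor that supports proliferation of B progenitors, was at 193, 233, 213 and 213 CPM. None of these genes differed by 2-fold between any pair of libraries.

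The recombination genes were also detected in every library. Rag1 was at 108, 131, 104 and 93.4 CPM and had a UMI in 62.7% of the cells against 0.182% of the Pf4 cells. Rag2 was at 63.4, 66.8, 63.8 and 58.6 CPM, and Dntt at 1124, 1103, 1364 and 1286 CPM. Dntt was higher in libraries 3 and 4 than in libraries 1 and 2, by less than 2-fold. Il7r, the interleukin 7 receptor chain, was at 212, 242, 231 and 229 CPM. Kit, the stem cell factor receptor that is lost at the pre-B stage, was at 42.9, 51.9, 37.9 and 38.9 CPM and had a UMI in 36.1% of the cells. The share was 48.5% in the 402 cells with Il7r and Ly6d but no Cd79a. It was 84.4% in the Pf4 cells, which thus give no background for Kit. Srcap was at 51.2, 71.8, 47.2 and 42.3 CPM, highest in library 2, and whether that follows genotype cannot be told from these files.

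**Figure D1:**
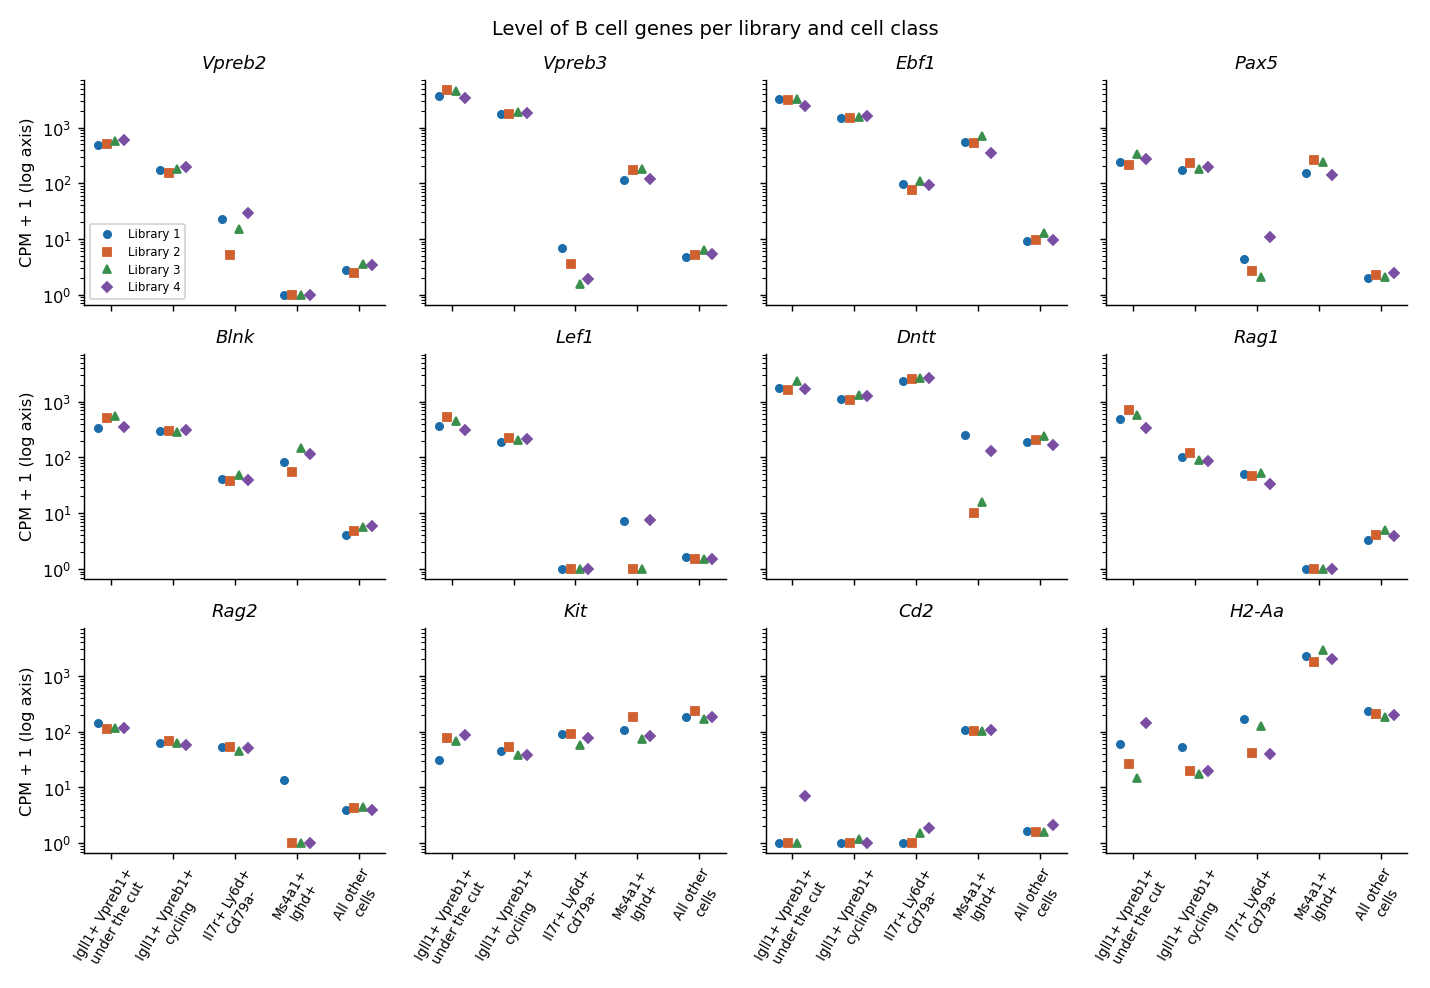
Level of 12 genes (CPM + 1, log axis) in the summed cells of each library, with 1 point per library and no error bars, for Igll1+ Vpreb1+ cells under and over the cycling cut, Il7r+ Ly6d+ Cd79a- cells, Ms4a1+ Ighd+ cells and all other kept cells. Rag1 was at 339 to 704 CPM in cells under the cut and 85.5 to 119 CPM in cycling cells, and Lef1 had no UMI in the Il7r+ Ly6d+ Cd79a- cells.

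Most Igll1+ Vpreb1+ cells passed a cut on cycling genes. A cell was called cycling when Mki67, Top2a, Ube2c and Birc5, genes of late S phase, G2 and mitosis, summed to at least 3 UMIs. This held for 366, 215, 318 and 303 cells of libraries 1 to 4, or 93.4%, 92.7%, 91.9% and 92.4%. Thinned to 5000 UMIs per cell, with 66 shallower cells left out, the share over all libraries was 92.6%, and the same 1232 cells gave 96.8% before thinning. The same thinning gave 47.2% in Il7r+ Ly6d+ Cd79a- cells (51.03% of the same cells before thinning) and 32.7% in all other kept cells (41.0% before). The libraries did not separate by this share. The cut fell in a sparse region: 58 cells had no UMI of the 4 genes, 38 had 1 or 2, 14 had 3 or 4, and 1095 had 10 or more. The 96 cells under the cut (26, 17, 28 and 25 by library) had a median of 4102.5 UMIs against 15248 in cycling cells, and 57 of them held under 5000 UMIs against 9 cycling cells. Depth thus moved with the split. When the cut was applied to counts thinned to 3000 UMIs in cells at least that deep, 1055 cells were cycling and 217 were not, with medians of 15808 and 11096 UMIs before thinning.

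**Figure D2:**
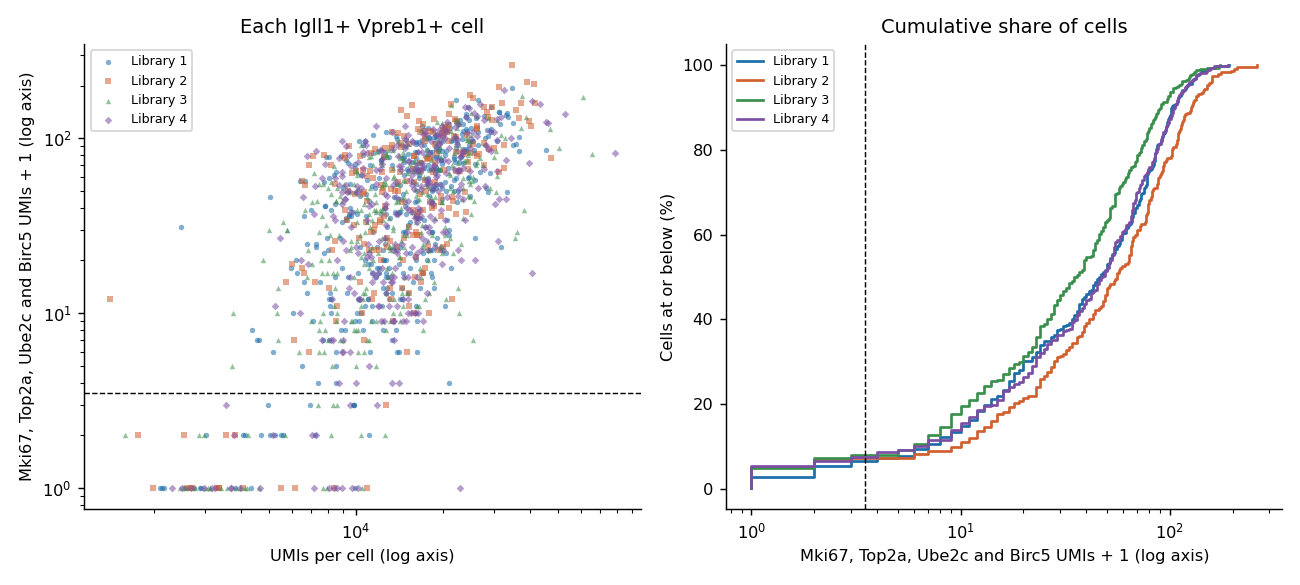
Left, UMIs per cell (log axis) against the summed UMIs of Mki67, Top2a, Ube2c and Birc5 plus 1 (log axis), with 1 point per Igll1+ Vpreb1+ cell. Right, the share of cells at or below each sum, by library. The dashed line marks the cut, and between 91.9% and 93.4% of each library's cells lay above it.

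Cycling cells were compared with cells under the cut within each library, on UMIs summed over the cells of each class and scaled to CPM. Genes at 5 CPM or more in the mean of both classes were used. A gene was called higher or lower when its ratio of CPM + 1 reached 2-fold one way within each of the 4 libraries. Ratios are given on the log2 scale as the median of the libraries. No statistical test lies behind these calls, since each library gives 1 pair of sums. It was met by 265 of 9212 genes on the higher side (2.88%) and by 177 on the lower side (1.92%), and the median gene was at -0.05. The 4 genes of the cut were left out, but genes expressed in the same phases were bound to follow it.

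The genes lower in cycling cells included Rag1. It stood at 99.0, 119, 89.6 and 85.5 CPM in the cycling cells of libraries 1 to 4 and at 495, 704, 585 and 339 CPM in the cells under the cut. The levels of the classes did not overlap, which the rule of 2-fold within each library favours, and the median log2 ratio was -2.43. Summed over libraries, Rag1 was at 96.9 CPM (exact Poisson interval 92.6 to 101) in 1933 UMIs and at 503 CPM (444 to 567) in 265 UMIs. With the cut on thinned counts, Rag1 was at 95.2, 116, 90.1 and 83.8 CPM against 172, 307, 176 and 142 CPM, without overlap, but its median of -0.90 no longer met the rule. When instead the rule for Igll1, Vpreb1 and Cd79a was applied to counts thinned to 3000 UMIs, with the cycling cut on the deposited counts, 573 cycling and 53 other cells were left. Rag1 was then at 99.6, 134, 96.9 and 90.7 CPM against 376, 914, 691 and 381 CPM and met the rule.

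Ltb, which encodes lymphotoxin beta, had the largest difference on the lower side by the ranking used, which takes the library closest to 0. It was at 23.6, 20.0, 17.1 and 13.8 CPM in cycling cells and at 192, 289, 266 and 236 CPM in the others, a median log2 ratio of -3.83, and the median was -1.96 with the cut on thinned counts. Cyp4f18, a fatty acid hydroxylase, followed at -3.54, Kdm5b, a histone H3 lysine demethylase, at -3.04, and Mxd4, an antagonist of MYC, at -2.78. The stress gene Trp53inp1 was at -2.27, the class II chaperone-like gene H2-Ob at -2.11, and Pcp4l1, Pbxip1, Fam129c, Selenop and Klhl24 were between -2.50 and -2.001. For each of these genes the highest library of the cycling cells lay below the lowest library of the others. The ranking by the library closest to 0 favours this, and the share of all genes without overlap was not counted. Of the 25 genes called lower that were named by rank or in a list, Ltb was the 1 that also met the rule with the cut on thinned counts, and 16 met it with the thinned rule for the cells. Of 84 such genes on the higher side, 57 and 71 did.

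Antiproliferative genes were among those lower in cycling cells. Of 22 tested genes of cell cycle exit, Btg1 (-1.77), Btg2 (-1.86) and Txnip (-1.72) were lower, whereas Cdkn2d (1.43) and the pocket protein gene Rbl1 (1.49) were higher, and the list median was 0.13. Of 26 MYC and ribosome biogenesis genes, Mxd3 (5.94) was higher and Mxd4 lower, with a median of 0.44. Among 16 apoptosis regulators Bmf (-3.04), a BH3-only activator of cell death, was lower. With the cut on thinned counts Bmf was at 0 to 1.11 CPM against 1.12 to 4.27 CPM. Of 11 immediate early and heat shock genes, Jun (-1.78) and Jund (-1.66) were lower. The surface antigens Cd27 (-1.74) and Cd38 (-2.26) were lower among 19 tested, and so were the MHC class II genes H2-Oa (-2.10) and H2-Ob among 9 and Ifi27l2a (-1.47) among 19 interferon response genes. None of 17 glycolysis genes and none of 28 nuclear genes of oxidative phosphorylation was called. The cells under the cut held 79515 to 165259 UMIs per library, so the ratios of Bmf, Cd38 and Mxd3 rest on few UMIs there.

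Against the 2.88% and 1.92% of all genes that were called, the lists of B lineage genes held few calls. None of 29 tested B lineage transcription factors and none of 16 genes of interleukin 7 and cytokine receptor signalling was called in either direction, with list medians of -0.61 and -0.70 against -0.05 for all genes. The first median was 0.059 with the cut on thinned counts. Ebf1 had a median log2 ratio of -1.06, Pax5 -0.49, Foxo1 -0.94 and Il7r -0.76. In the surrogate light chain list Vpreb2 (-1.64) was lower, 1 of 7 tested genes, and the median was -0.95, with Vpreb3 at -1.18 and Cd79b at -1.01. With the thinned rule for the cells Vpreb2 was at 179, 171, 197 and 194 CPM against 241, 578, 701 and 368 CPM and was no longer called. Cd27 was not called there either, at 19.5, 5.31, 22.1 and 13.9 CPM against 30.1, 48.1, 120 and 12.7 CPM. It had 17 UMIs in the cells under the cut. Vpreb3, in contrast, was called lower with that rule, at 2047 to 2245 CPM against 4224 to 5318 CPM. In pre-B cell receptor signalling 1 of 23 genes, the inhibitory receptor Cd72 (-1.55), was lower, with a median of -0.47. Of 16 genes of V(D)J recombination and end joining, Rag1 and Xrcc6 (-1.56), the Ku70 subunit, were lower and H2afx (4.16), Hmgb1 (1.32) and Hmgb2 (2.14) were higher. The last 3 are chromatin genes that serve replicating cells as well. Rag2 was at -0.94 and Dntt at -0.61, and neither was called.

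Mitotic and replication genes were among the higher genes. Of 38 tested genes of G2 and M phase 36 were higher, with a median log2 ratio of 4.30, and of 26 replication-dependent histone genes 22 were higher, with a median of 3.79. Ccna2 (cyclin A2) had 3760 UMIs in cycling cells and none in the others, and was at least 33.1-fold higher against a floor of 3 UMIs over the group. Nusap1, a spindle protein gene, had 1 UMI in the cells under the cut, and its ratio was 167 with a counting interval of 29.96 to 6596. Tpx2, another spindle gene, also had 1 UMI there and a ratio of 114 (20.4 to 4502). The mitotic genes Kif22 and Pimreg, the kinetochore gene Nuf2, the checkpoint kinase gene Bub1 and the histone genes Hist1h3b and Hist1h2af had no UMI under the cut and were at least 17.7-fold, 13.7-fold, 10.7-fold, 10.5-fold, 15.0-fold and 12.1-fold higher. With the 7 such genes of the G2 and M phase list and the 3 of the histone list at these bounds, the list medians were 3.36 and 3.47.

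Fewer S phase genes were called. Of 39 tested, 9 were higher and none lower, with a median of 1.10, which was -0.10 with the cut on thinned counts. Rrm2 (2.91), the regulated subunit of ribonucleotide reductase, Tyms (2.73), Tk1 (2.70) and E2f8 (4.72) were among them, but none of these was called with the cut on thinned counts. Of 29 homologous recombination and Fanconi genes 8 were higher, among them Brca1 (3.95) and Fancd2 (4.31), with a median of 1.70. The ratios of Brca1 and Fancd2 also rest on few UMIs in the cells under the cut. With the cut on thinned counts Brca1 was at 0.11 and was not called, whereas Fancd2 was at 1.60 and was called. In the SRCAP complex and H2A.Z list, H2afz (1.90), which encodes H2A.Z, and Anp32e (1.46), a chaperone that removes it, were higher, 2 of 15, with a median of 0.61, and Srcap itself was at 0.33. With the cut on thinned counts H2afz was at 0.36 and Anp32e at 0.70. Neither was called there or with the thinned rule for the cells. Ccnd3, the D-type cyclin that large pre-B cells need, was at 693, 648, 689 and 687 CPM in cycling cells and 332, 189, 245 and 369 CPM in the others. Its median log2 ratio was 1.27, but it missed the 2-fold rule in at least 1 library.

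The counts of this comparison moved with the settings. With the cut on thinned counts 152 genes were higher and 8 lower. The count on the lower side was 268 to 370 with 1 library left out and 100 with trimmed mean of M-values (TMM) scaling, which moved the median of all genes by 0.30, and the share of calls on the higher side was 59.95% with CPM and 79.6% with TMM.

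**Figure D3:**
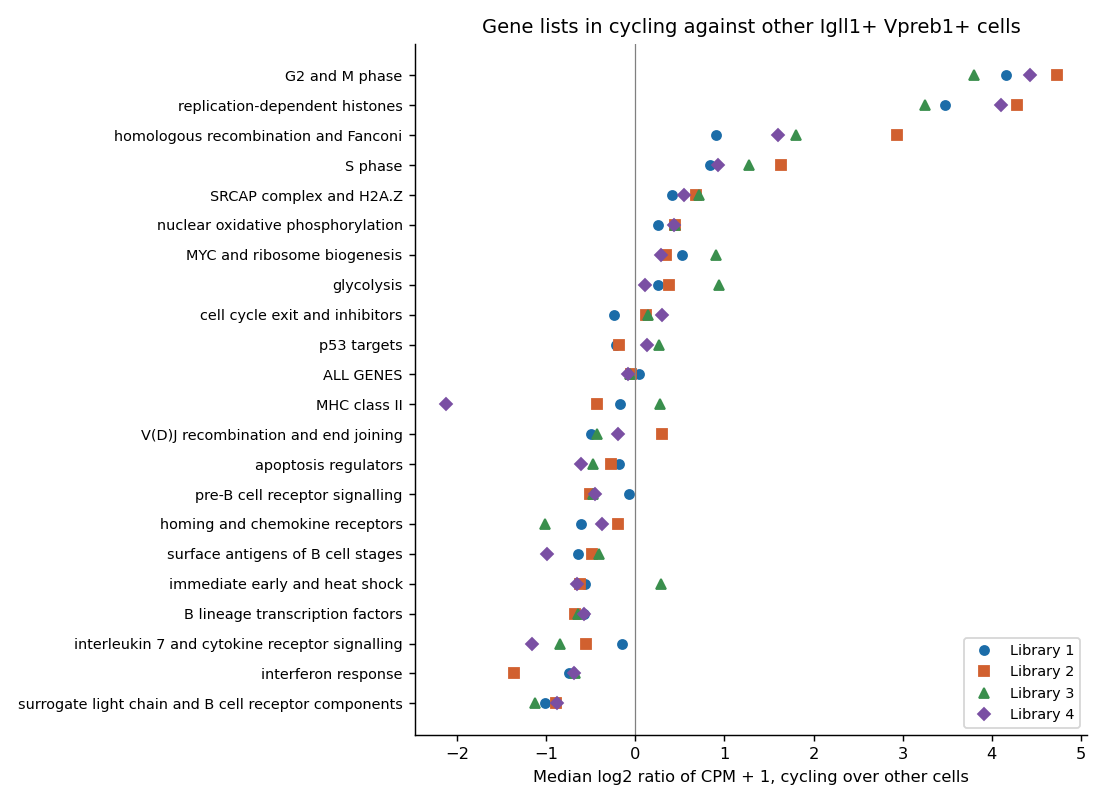
Median log2 ratio of CPM + 1 of each gene list, cycling over other Igll1+ Vpreb1+ cells, with 1 point per library and the median of all tested genes as its own line. The G2 and M phase list, with a median of 4.30 over the libraries, and the histone list, at 3.79, were at the high end, and the B lineage transcription factor list was at -0.61.

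A finer division by the level of the 4 cycling genes placed the differences of Rag1, Ltb and Kdm5b mostly at the low end. The cells were put into 4 bins by the UMIs of Mki67, Top2a, Ube2c and Birc5 per 10000 UMIs of the cell: under 2 (13 to 22 cells per library), 2 to 10, 10 to 30, and 30 or more. The lowest bin was thin, with under 20 cells in libraries 1 and 2. Its cells were also shallower, with library medians of 3366 to 6118 UMIs against 11282.5 to 13504 in the next bin. The part of depth in the differences between bins was not tested. Rag1 was at 525, 722, 604 and 317 CPM in the lowest bin and at 170.5, 177, 119 and 117 CPM in the next. It was at 65.4 to 108 CPM in the third bin and 94.9 to 120 CPM in the highest, so that without the lowest bin Rag1 ranged from 65.4 to 177 CPM. Ltb was at 212 to 325 CPM in the lowest bin and at 22.9 to 38.5, 14.6 to 33.4 and 8.15 to 17.5 CPM in the others. Ebf1 was at 2257 to 3102, 1323 to 1508, 1218 to 1321 and 1649 to 1864 CPM over the 4 bins, with its lowest levels in the third. Kdm5b was at 80.8 to 221 CPM in the lowest bin and 9.86 to 23.1 CPM over the others.

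Cell cycle genes differed in the bins where they were highest. Mcm3, a subunit of the replicative helicase that is loaded before S phase, was at 73.7 to 229 CPM in the lowest bin and at 311 to 455, 284 to 398 and 186 to 239 CPM in the others. Ccne2 (cyclin E2), which acts at the entry into S phase, was at 0 to 13.5 CPM, then at 38.5 to 81.9, 41.3 to 70.4 and 15.5 to 24.0 CPM. The linker histone gene Hist1h1b was at 80.9 to 133, 548 to 823, 2457 to 3679 and 2987 to 4281 CPM. Ccnb1 (cyclin B1), needed for mitosis, was at 0 to 20.2, 28.8 to 45.9, 71.2 to 98.4 and 257 to 332 CPM. Ccne2 and Mcm3 were thus lower in the highest bin than in the 2 bins before it in every library, whereas Hist1h1b and Ccnb1 were highest there. Ccnd3 was at 221 to 337 CPM in the lowest bin and 585 to 749 CPM over the other 3.

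**Figure D4:**
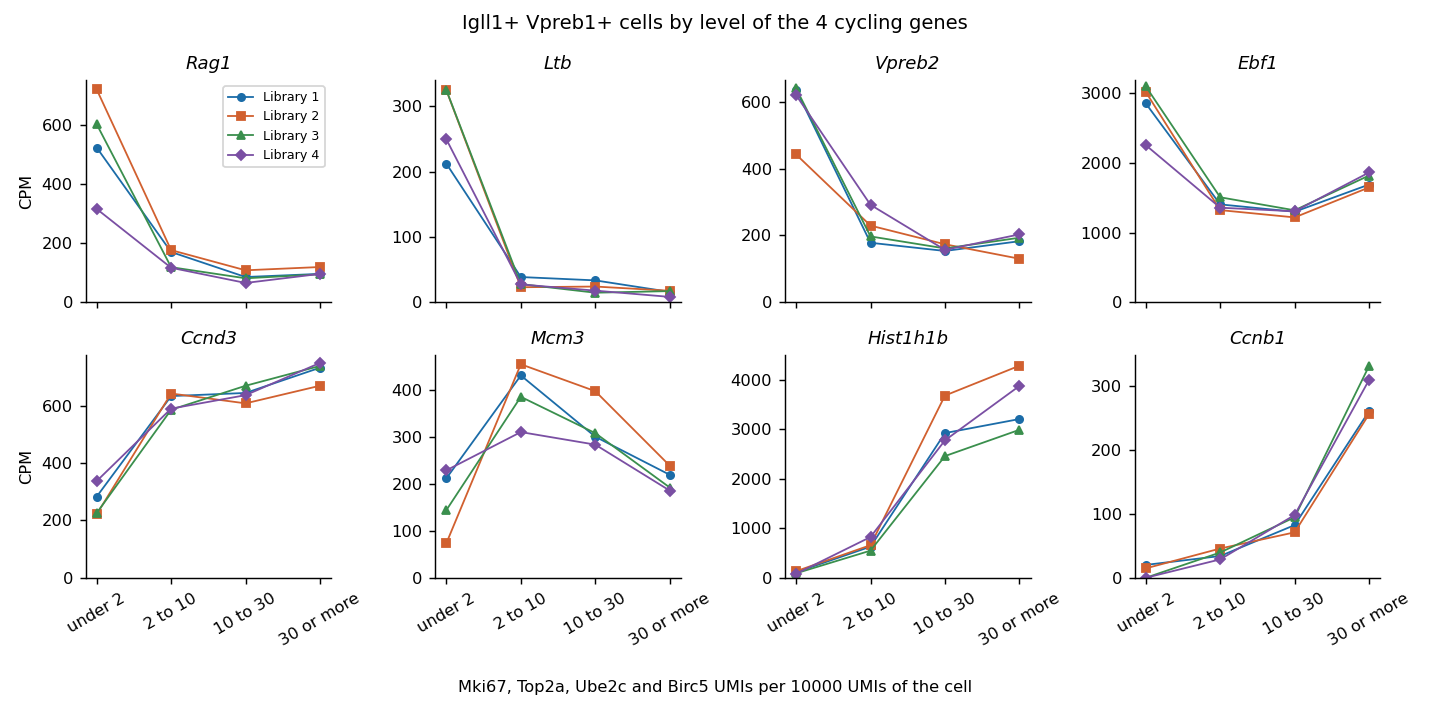
Levels (CPM) of 8 genes in Igll1+ Vpreb1+ cells binned by the UMIs of Mki67, Top2a, Ube2c and Birc5 per 10000 UMIs of the cell, with 1 line per library and no error bars. Rag1 and Ltb were highest in the lowest bin, Rag1 at 317 to 722 CPM, and Ccnb1 was at 257 to 332 CPM in the highest bin.

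The cells were next set against 402 cells with Il7r and Ly6d but no Cd79a (91, 89, 133 and 89 by library), a rule meant for lymphoid progenitors. Most of these cells shared Cox6a2, a gene also of plasmacytoid dendritic cells, with a UMI in 86.3% against 8.17% of the Igll1+ Vpreb1+ cells. Smaller parts of them held Siglech (10.2%), the T cell receptor gene Trbc1 (11.4%) and Bcl11b (8.21%), while Cd3e was at 0 in all 402. Dntt had a UMI in 97.8% of them. At 2-fold in 4 of 4 libraries 178 of 9310 genes were higher in the Igll1+ Vpreb1+ cells (1.91%) and 439 lower (4.72%), with the median gene at -0.14. Genes used in either rule were left out.

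B lineage factors were on both sides of this comparison, 8 of 31 higher and 4 lower. Lef1 was at 193 to 233 CPM in the Igll1+ Vpreb1+ cells and had no UMI in the other side, a difference of at least 373-fold. Pou2af1, an octamer factor coactivator, was at 6.21 on the log2 scale, Pax5 at 5.88, Id3 at 5.33, Ebf1 at 4.04, Irf4 at 2.86, Foxo1 at 1.90 and Tcf3 at 1.37. Ebf1 was present at 75.7 to 107 CPM in the Il7r+ Ly6d+ Cd79a- cells of each library, against 1502 to 1609 CPM. Id2 (-2.48), which opposes E proteins, Irf8 (-1.61), Gfi1b (-1.55) and Sox4 (-1.21) were lower. The median of the list was -0.14, as was that of all genes. It was 0.07 with TMM scaling, which moved the median of all genes by 0.20.

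Receptor genes were higher in the Igll1+ Vpreb1+ cells. Vpreb3 was at 1792 to 1943 CPM against 0.554 to 5.92 CPM, a log2 ratio of 9.48. Cd79b (3.56) and Vpreb2 (3.30) completed the 3 of 6 tested receptor genes that were higher, with a median of 2.64. In pre-B cell receptor signalling 5 of 22 genes were higher, among them the adaptor Blnk (2.89), the kinase gene Prkcb (2.44) and Siglecg (3.01), and Pik3r1 (-1.22) was lower. Ccnd3 was at 638 to 685 CPM against 123 to 145 CPM, a log2 ratio of 2.30. Bcl2l1 (1.79), which encodes BCL-XL, was higher and Bcl2 (-2.62) was lower among 14 apoptosis regulators. Other genes high in the Igll1+ Vpreb1+ cells by the ranking were Cecr2, Cplx2, Akap12, Gfra2, Chchd10 and Rnase12, which are in no list.

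Of 17 tested recombination genes, Rag1 (1.30) and Hmgb1 (1.28) were higher and none was lower, with a median of 0.07. Rag1 was at 93.4 to 131 CPM against 32.1 to 50.9 CPM, but its sign changed in a cleaned comparison given below. Dntt was at 1103 to 1364 CPM against 2318 to 2658 CPM, and its log2 ratio of -1.04 missed the rule in at least 1 library.

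Genes of earlier and other lineages were lower. Flt3 (-2.75), a cytokine receptor of multipotent progenitors, and Csf2rb (-1.19) were the 2 lower genes of 16 in cytokine signalling. Cd34 (-2.92), Cd27 (-3.00) and Cd44 (-1.84) were among 5 lower surface antigens of 16, and Bst1 (4.25) and Cd24a (1.70) were higher. The homing receptor gene Ccr9 (-4.93) was lower, as were Itgb7 (-2.05) and Ccr7 (-1.73), 3 of 10. By the ranking the lower side held Cox6a2, Trbc1, Cmah, Chdh, Tyrobp, Bcl11b, Il18rap, Bex6, Mpeg1, Ncf1 and Fcer1g, and Bcl11b had no UMI in the Igll1+ Vpreb1+ cells.

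Markers of other cell types moved with this comparison. The summed level of 9 dendritic cell markers was 315 to 376 CPM in the libraries of the Igll1+ Vpreb1+ cells, with Cd209a at 0, and 1257 to 1499 CPM in the Il7r+ Ly6d+ Cd79a- cells. That of 11 markers of T, NK and innate lymphoid cells was 61.3 to 113 CPM and 334 to 567 CPM, with Cd3e at 0 in both. Without the 374 cells that held a UMI of Cox6a2, Siglech, Trbc1, Bcl11b or Cd3e, 28 cells were left (4, 9, 10 and 5 by library). Cox6a2 had a UMI in 347 of the 402, so most of the class was removed. Whether the removed cells were of other cell types was not tested. Against the 28 cells 175 genes were lower in place of 439, and Rag1 turned to -0.15. Cox6a2 (3.21) and Trbc1 (0.43) changed sign because they were among the genes by which cells were removed, which put them at 0 there.

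Against 144 cells with Ms4a1, Ighd and Cd79a (37, 24, 39 and 44 by library), a rule for mature B cells, 347 of 9389 genes were higher in the Igll1+ Vpreb1+ cells (3.7%) and 445 were lower (4.74%), with the median gene at 0.01. Those cells were shallow, with a median of 2279.5 UMIs, and the part of depth in this comparison was not tested. All 10 MHC class II genes were lower, with a median of -4.52: the invariant chain gene Cd74 was at -6.98, H2-Eb1 at -6.91, H2-Aa at -6.45 and Ciita, their common activator, at -5.32. Light chain constant genes were lower too, with Igkc at -5.10, Iglc1 at -7.11, Iglc2 at -7.90 and Iglc3 at -8.40. Fcmr, the IgM Fc receptor gene, stood at -8.73 and Klf2, a factor of resting naive lymphocytes, at -6.09. Cd2 had 2 UMIs in the Igll1+ Vpreb1+ cells, a ratio of 1079 in favour of the mature side (288 to 9076), and Ikzf3 (Aiolos), with 1 UMI, a ratio of 1808 (313 to 72553).

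Homing and activation receptors belonged to the mature side as well. Cxcr5 (-5.17), Ccr6 (-5.08), Gpr183 (-5.05), Ccr7 (-3.42) and S1pr1 (-3.30) were among 7 lower genes of 14 homing receptors, with none higher. Of 24 surface antigens 13 were lower, among them Fcer2a (-6.10), Cd40 (-5.21) and Cr2 (-4.32), and Bst1 (5.12) and Cd93 (2.12) were higher. Cd22 (-5.18) and Lyn (-2.01) were among 7 lower signalling genes of 24, and Blnk (1.60) was higher.

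The recombination list was higher in 7 of 17 genes and lower in none, with a median of 1.37. Rag1 was at 93.4 to 131 CPM in the Igll1+ Vpreb1+ cells and had no UMI in the Ms4a1+ Ighd+ cells, so it was at least 25.1-fold higher. Rag2 was at 5.96 on the log2 scale, Dntt at 4.87 and Lig4, the ligase that seals the joints, at 4.06. Rag2 had UMIs in 1 of the 144 Ms4a1+ Ighd+ cells, 2 in number, so its ratio depends on the 1 CPM added to each side. Vpreb2 was at least 43.4-fold and Gfra2 at least 25.6-fold higher. Il7r was at 6.79, with 4 UMIs in the mature side and a ratio of 39.8 on UMIs summed over the libraries. Ebf1 was at 1.4996, Tcf3 at 1.25 and Lef1, with 3 UMIs in the mature side, at a ratio of 49.4 (16.9 to 239). Pax5 was at 174 to 233 CPM against 140 to 256 CPM and was not called.

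Cell cycle genes completed that side. Of 39 genes each, 23 of the S phase list and 23 of the G2 and M phase list were higher and none lower, and 17 of 26 histone genes were higher. Ccnd3 (3.20), Bcl2l1 (4.77) and Cdkn1a (5.03), the p21 gene, were higher, and Btg1 (-2.46), Txnip (-2.15) and Bcl2 (-2.29) were lower. In the SRCAP complex and H2A.Z list H2afz (1.70), H2afv (1.64) and Anp32e (1.75) were higher, 3 of 15, with a median of 0.37. The higher count was 526 with TMM scaling, which moved the median of all genes by 0.25, and the share of calls on the higher side went from 43.8% to 60.3%.

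Against all other kept cells 395 of 9535 genes were higher (4.14%) and 924 were lower (9.69%), with the median gene at -0.18. TMM scaling moved that median by 0.16 and the share of calls on the higher side from 29.9% to 40.2%. Of 32 B lineage transcription factors 11 were higher, led by Ebf1 (7.34), Lef1 (7.15), Id3 (6.68) and Pax5 (6.46), and Id2 (-2.95), Gfi1b (-2.16) and Zfp521 (-1.62) were lower. The list median was 0.31. Bach2 (1.81), Ets1 (2.87) and Spib (3.05) were called higher here and not against the Il7r+ Ly6d+ Cd79a- cells, and whether these differences differ was not tested. In recombination 7 of 17 genes were higher, among them Rag1 (4.81), Rag2 (3.97), Lig4 (2.33) and Dntt (2.54). Il7r (4.15) was the 1 higher gene of 17 in cytokine signalling, and Kit (-2.13) and Flt3 (-1.17) were among 4 lower.

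Cycle genes were higher against the other kept cells too, 20 of 26 histone genes and 22 of 39 genes of G2 and M phase, with medians of 1.32 and 1.27. Ccnd3 was at 638 to 685 CPM against 83.0 to 88.5 CPM, a log2 ratio of 2.97. E2f2 (3.45) and Cdkn1a (2.52) were higher, and Ccnd1 (-2.11) and Cdkn1c (-1.61), a brake on stem cell division, were lower. The glycolysis genes Ldhb (-2.65), Slc2a3 (-1.63), Hk1 (-1.45) and Hk2 (-1.49) were lower and the lactate carrier gene Slc16a1 (1.37) was higher, of 18 tested. By the ranking, the lower side also held the stem cell genes Hlf (-2.91), Ifitm1 (-2.97) and Angpt1 (-3.09) and the granulocyte gene S100a9 (-4.49). In the SRCAP complex and H2A.Z list Anp32e (1.32) was the 1 higher gene of 15.

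Within the Igll1+ Vpreb1+ cells 8848 genes were at 5 CPM or more. Of these genes 132 differed by 2-fold or more between the highest and the lowest library, and 88 of the 132 were highest in library 2, 17 in library 1, 8 in library 3 and 19 in library 4. Library 2 also had the fewest cells, 232.

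Genes of other cell types led this difference. Elane, neutrophil elastase, was at 68.9, 4.96, 123 and 268 CPM, although it had a UMI in 7.78% of the Igll1+ Vpreb1+ cells and in 7.80% of the Pf4 cells. Igkc was at 109, 389, 43.9 and 1423 CPM, and 1 cell of library 4 held 7229 of its 7571 Igkc UMIs. Cells with 10 or more UMIs over 44 defining markers of other cell types numbered 137 (10.6%), with 48, 23, 36 and 30 by library. Without them Elane was at 5.13, 4.69, 5.52 and 3.37 CPM and Igkc at 58.7, 50.3, 47.3 and 69.5 CPM, so that neither differed by 2-fold, which the removal by markers of other cell types itself favours. Whether these cells were doublets was not tested, and no doublet caller was run.

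Jchain (4.06 to 54.8 CPM over the libraries), Ctsg (18.5 to 195), Mpo (14.4 to 126), Prtn3 (39.7 to 282) and Pf4 (10.2 to 69.2) also fell when those cells were left out, to 4.08 to 8.32, 5.53 to 9.36, 5.76 to 8.29, 6.97 to 14.6 and 2.92 to 7.504 CPM. The remaining 5 of the 12 genes with the largest ratios changed less. H2-Aa was at 51.7, 19.1, 16.3 and 19.3 CPM and Cd74 at 92.6, 30.01, 30.01 and 40.01 CPM, both highest in library 1. Before any cells were left out, 3 cells of library 1 held 52.5% of its H2-Aa UMIs and 62.4% of those of Cd74. The histone genes Hist1h2br (51.5, 56.0, 25.9 and 42.9 CPM) and Hist1h3f (164, 192, 97.5 and 147 CPM) and Cmip (33.6, 49.4, 23.0 and 32.1 CPM) were highest in library 2 and lowest in library 3, by a little under 2-fold for Hist1h3f.

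**Figure D5:**
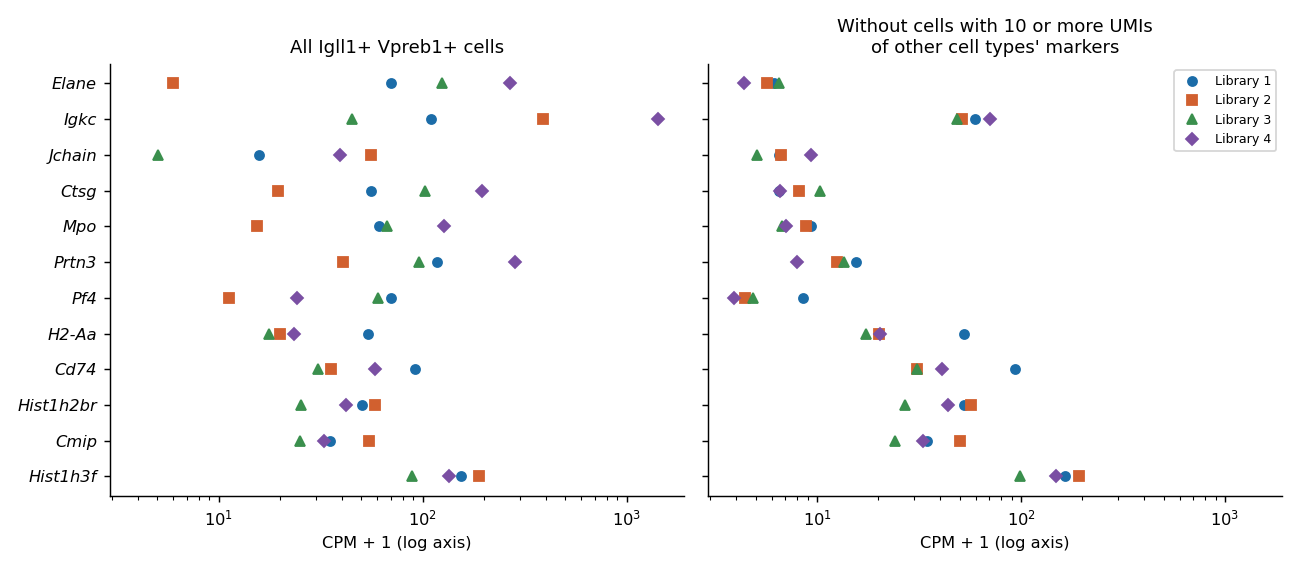
Level (CPM + 1, log axis) in each library of the 12 genes with the largest ratio of the highest to the lowest library in Igll1+ Vpreb1+ cells, with all cells on the left and without the 137 cells with 10 or more UMIs of other cell types' markers on the right. Elane ran from 4.96 to 268 CPM on the left and from 3.37 to 5.52 CPM on the right.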

How the data were processed

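Single-cell 3′ RNA-seq libraries of donor bone marrow cells were deposited as 1 matrix of UMI counts of 32285 genes in 44151 barcodes, which per the file headers came from the authors' Cell Ranger run (version 6.1.2); mm10 is named in the submitters' processing notes. Filters before deposit are not given in the sources used here. The 4 libraries are the suffixes of the barcodes, and 0 columns of per-sample values were left unused. No source ties suffixes to samples, so the planned test of genotype was not run, and p-values were not computed.

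UMIs were summed per library and class and scaled to CPM. Log2 ratios used a pseudocount of 1 CPM and genes at 5 CPM or more in the mean of both sides. Intervals at 95% were exact (Poisson for levels, Clopper-Pearson for shares), and floors were 3 counts. Named genes were the 12 highest and 12 lowest at 50 CPM or more, ranked by the library closest to 0, without gating, ribosomal protein, mitochondrial and unnamed genes, plus examples from the lists. The cells, the 32 gene lists (566 of 568 genes found) and the rules were chosen with earlier results of these data known. The comparison by Dntt was not run because 5 cells had no Dntt UMI. No doublet caller was run, and alternatives left out cells with UMIs of 44 markers of other cell types. The ratio script was tested on simulated data. Python 3.11.15, NumPy 2.4.6, SciPy 1.17.1, pandas 2.3.3 and edgeR 4.0.16 (TMM factors only) were used. Alternatives covered filters, pseudocount, scaling, gates, thinning and each library left out. Some genes that met the naming rule are not reported here.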

Additional observations from a re-analysis of the deposited data

How the results depend on the processing

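No paired analysis was possible because the barcode suffixes are not tied to samples, so replicate numbers cannot be assigned to cells. Of the counts and shares recomputed under the alternatives, 104 values were within 1.5 times the main count or within the interval of the main share, and 23 were not. The share of kept cells was 3.16%, and 3.40% with a mitochondrial limit of 5% or 2.43% thinned to 5000 UMIs. The cycling share was 92.6%, and 98.5% thinned to 10000 UMIs. Without a gene filter the higher counts were 545 for cycling against other cells and 628 against Ms4a1+ Ighd+ cells, and the lower count against all other cells was 1437. With a filter of 20 CPM the lower counts were 104 (cycling), 212 (Il7r+ Ly6d+ Cd79a-), 271 (Ms4a1+ Ighd+) and 365 (all other cells). With a pseudocount of 5 CPM they were 103 (cycling), 269 (Il7r+ Ly6d+ Cd79a-) and 614 (all other cells). With the cycling cut on thinned counts 152 genes were higher and 8 lower. TMM scaling gave 100 lower (cycling) and 526 higher (Ms4a1+ Ighd+). With 1 library left out, fewer libraries had to meet the rule, and the lower cycling count was 268 to 370, 268 without library 2, 272 without library 3, 287 without library 4 and 370 without library 1. Leaving out cells with 2 or more UMIs of other types' markers gave 681 lower against Il7r+ Ly6d+ Cd79a- cells, and cleaning those of T cell and dendritic cell genes gave 175.

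Among list medians and named genes, 2767 values stayed, 449 moved by more than the spread between libraries and 22 changed sign. Without a filter the cycling medians of homing receptors (0.088) and apoptosis regulators (0.12) and the surface antigen median against all other cells (-0.20) changed sign. The cycling cut on thinned counts turned the cycling medians of pre-B cell receptor signalling (0.0042), B lineage transcription factors (0.059), homing receptors (0.15), S phase (-0.10), MYC and ribosome biogenesis (-0.058), glycolysis (-0.13), nuclear oxidative phosphorylation (-0.015) and apoptosis regulators (0.042), and Fam129c (0.17). By construction it put cells with fewer UMIs of the 4 genes on the other side. Against Il7r+ Ly6d+ Cd79a- cells, TMM turned the B lineage transcription factors (0.067) and immediate early genes (0.0033), and the cleaned comparator turned these lists (0.044 and 0.21), Rag1 (-0.15) and, by the removal itself, Cox6a2 (3.21) and Trbc1 (0.43). Against Ms4a1+ Ighd+ cells, glycolysis turned without cells of 2 or more other-type UMIs (-0.0051), and p53 targets with the 5% mitochondrial limit (-0.085) and with 1 library left out (-0.066 to 0.099, negative without library 4). Other causes were not tested. The cleaned comparator, the cut on thinned counts and the rule for the cells on thinned counts were chosen after seeing the data, as was the removal of cells with 10 or more other-type UMIs. Depth limits the 96 cells under the cycling cut (26, 17, 28 and 25 by library) and the 144 Ms4a1+ Ighd+ cells, where genes at 0 give only bounds.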
